A study of Mus musculus with 6 samples.

Results

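The 10 genes described here carry iron into the cell, store it, recover it from ferritin and from heme, and release it to the blood. They are Trf, Tfrc, Steap3, Slc11a2, Fth1, Ftl1, Pcbp2, Ncoa4, Hmox1 and Slc40a1, taken by gene name from a table of 54532 genes, and all 10 had enough counts to be tested. They were measured in eWAT, the white fat pad attached to the epididymis, of 3 control mice and of 3 cachectic mice. Cachexia was brought about by subcutaneous inoculation with LLC (Lewis lung carcinoma) cells, an established line of mouse lung tumor. All were male C57BL/6 mice, obtained at an age of 6 to 10 weeks, and the tissue was harvested on day 21. The study took weight loss of over 20% as cachexia, and what the control mice received in place of LLC cells was not given in the sources used here. Each RNA-seq library of total RNA was taken to come from 1 mouse. The comparison asked how iron-handling genes differed between wasting and normal eWAT.

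Iron travels in blood bound to transferrin, which cells take up through the transferrin receptor. In the endosome the iron is freed, reduced by a STEAP reductase and moved to the cytosol by a divalent metal transporter. Iron that is not needed is stored in ferritin, a shell of heavy and light chains, and is recovered when NCOA4 carries ferritin to the lysosome, a process called ferritinophagy. Heme oxygenase frees iron from heme, and ferroportin, the only known iron exporter of mammalian cells, passes it to the blood. Free ferrous iron drives the lipid peroxidation of ferroptosis. In adipose tissue, macrophages as well as adipocytes store and recycle iron.

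Several of these mRNAs carry an iron-responsive element (IRE), a short hairpin with a 6-base loop to which the iron regulatory proteins bind when iron is scarce. Bound in a 5′ UTR the proteins block translation, and bound in a 3′ UTR they stabilize the mRNA. The hairpins are shown because, among the genes in which they were found, they separate those whose mRNA level from those whose translation is the classic target of these proteins. A search of whole protein-coding transcripts of GENCODE M21 (GRCm38) looked for the loop CAGTGN, whose last base was not G, on a stem of 5 base pairs (G–T pairs allowed) below which stood an unpaired C. All matches in the 10 genes lay in UTRs, with 4 in Tfrc, 1 each in Fth1, Ftl1 and Slc40a1, and none in the other 6 genes. Only the transcript strand was searched, and 222 of 21901 protein-coding genes (1.01%) held a match. Each stretch of 29 bases is written 5′ to 3′ on the gene's own strand, with the loop in capitals.
Tfrc, 3′ UTR, chr16:32631219-32631247, plus strand: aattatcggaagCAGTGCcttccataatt
Tfrc, 3′ UTR, chr16:32631598-32631626, plus strand: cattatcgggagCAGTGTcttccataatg
Tfrc, 3′ UTR, chr16:32631663-32631691, plus strand: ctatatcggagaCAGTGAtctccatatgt
Tfrc, 3′ UTR, chr16:32631710-32631738, plus strand: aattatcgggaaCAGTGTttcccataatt
Fth1, 5′ UTR, chr19:9982732-9982760, plus strand: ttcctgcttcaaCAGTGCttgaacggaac
Ftl1, 5′ UTR, chr7:45459779-45459807, minus strand: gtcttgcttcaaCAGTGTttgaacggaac
Slc40a1, 5′ UTR, chr1:45925465-45925493, minus strand: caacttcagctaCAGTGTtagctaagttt
The stretches of Fth1 and Ftl1 had 26 of 29 bases in common. Each of them shared 13 with the stretch of Slc40a1, and between 9 and 13 with any of those of Tfrc. A match is a pattern in the sequence and not a measured binding site, and the absence of one says only that these letters do not stand in the annotated transcripts. The search misses any hairpin with a bulge or a mismatch within the 5 pairs. A gene without a match, such as Slc11a2, is therefore not shown to lack an IRE.

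Total counts per library lay between 14928766 and 18855546, and 16003 genes entered edgeR's quasi-likelihood test. Expression is given as CPM, counts scaled to the TMM-normalized size of the library, and fold changes are cachectic over control mice. The defining markers of adipocytes were abundant in every library, with a summed level of 33110 to 47190 CPM in control and 36460 to 50940 CPM in cachectic mice. Of these 10 genes, Cidec and Pnpla2 were higher (log2 fold changes 0.87 and 1.08) and none was lower. Plin1 (-1.44), Lpl (-0.81) and Retn (-0.60) had negative log2 fold changes and did not pass the test. The groups did not overlap for these 5 of the 10 genes, beside 40.5% of all tested genes. The sum thus covers members that differ in direction. Erythroid markers (7 genes, among them Hbb-bs and Alas2) summed to 252 to 451 CPM in control and 1334 to 2856 CPM in cachectic mice, and all 6 tested were higher. Neutrophil markers (12 genes) summed to 33.4 to 50.6 and 265 to 758 CPM, and 9 of the 10 tested were higher. Endothelial markers (8 genes) summed to 1560 to 1606 and 2214 to 3174 CPM, with 4 higher, and those of stromal progenitors (8 genes) to 16130 to 18160 and 6241 to 14460 CPM, with 4 lower. The 4 lower progenitor markers were Col1a1, Col3a1, Pi16 and Lum. Gsn, the largest member of that sum, was at 10690 to 12450 CPM in control and 3831 to 11390 CPM in cachectic mice. Neither Gsn nor Dcn, Dpp4 and Pdgfra (log2 fold changes -0.66, -0.06, -0.12 and -0.75) passed the test. Macrophage markers (12 genes) summed to 1535 to 1913 and 1221 to 1877 CPM, with 1 higher and 1 lower. Of all tested genes, 9.0% were higher and 8.63% were lower. The shares called higher were 100% for tested erythroid, 90% for neutrophil, 50% for endothelial and 20% for adipocyte markers. Of the progenitor markers 50% were lower. The macrophage shares, 8.33% higher and 8.33% lower, were near those of all tested genes. No marker of these 6 lists was at 0 in all libraries, but Ly6g of neutrophils was at 0 in every control library and held 6 to 10 counts in the cachectic ones. The part of these cells in the results below was not tested, and in bulk tissue fewer cells of a type and less RNA per cell cannot be told apart. In a principal component analysis control replicate 1 stood apart from the other controls on the component after the one that separated the groups, and the calls that were lost without it are given at the end.

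Of the 10 iron genes, 1 was higher (Pcbp2) and 2 were lower (Tfrc and Steap3) in the cachectic group (edgeR adjusted p below 0.05). Of all tested genes, 9.0% were higher and 8.63% were lower, so neither number sets the 10 genes apart from the background. The median log2 fold change of the 10 was 0.26, against -0.003 over all tested genes. The values of the 2 groups did not overlap for 4 of the 10 genes (Tfrc, Steap3, Pcbp2 and Ncoa4), and this was so for 40.5% of all tested genes. By role, 2 of the 4 uptake genes were lower and none was higher, 1 of the 4 genes of storage, delivery and ferritinophagy was higher and none was lower, and neither heme release nor export passed the test.

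**Figure D1:**
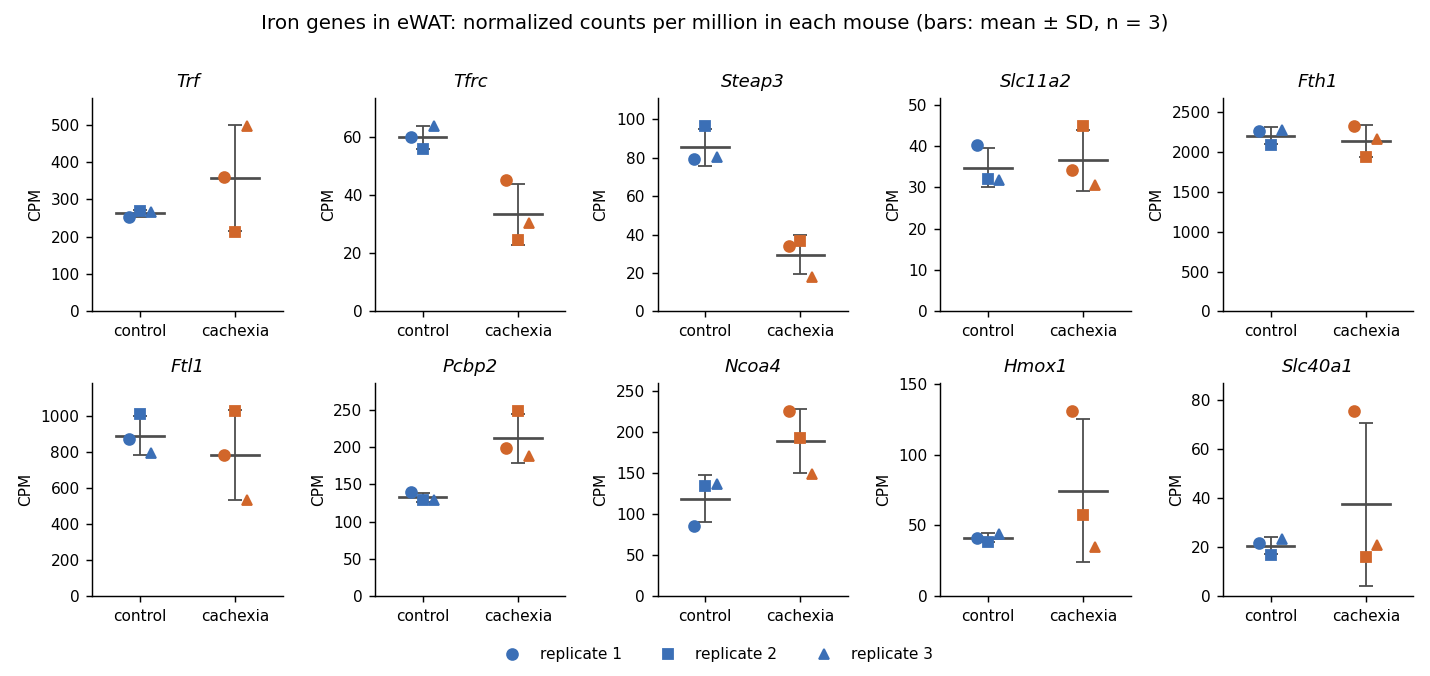
Expression of the 10 iron genes in each mouse, in TMM-normalized CPM (vertical axes starting at 0), with control mice in blue, cachectic mice in orange and a symbol for each replicate. Horizontal lines are group means and bars are SD (n = 3). Tfrc and Steap3 lie lower in every cachectic mouse, Pcbp2 and Ncoa4 lie higher in every cachectic mouse, and for Hmox1 and Slc40a1 cachexia replicate 1 stands above the other 5 mice.

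The 2 genes called lower, Tfrc and Steap3, were among the 4 uptake genes. Tfrc (chromosome 16, 32608920 to 32632794), the transferrin receptor, was at 60.0, 55.8 and 63.8 CPM in control replicates 1 to 3. In cachectic mice it was at 45.1, 24.7 and 30.2 CPM. Every cachectic mouse was below every control, and cachexia replicate 1 was the nearest to them. The mean fell from 59.8 ± 3.99 to 33.4 ± 10.6 CPM (SD, n = 3), which is 1.79-fold lower. The log2 fold change was -0.84 (standard error, SE, 0.22, 95% interval -1.34 to -0.34, edgeR adjusted p = 0.0341). This call was close to the threshold. It was kept without cachexia replicate 1 (edgeR adjusted p = 0.0111), whereas leaving out any 1 of the other 5 mice gave an edgeR adjusted p between 0.0697 and 0.117, with a log2 fold change of -0.66 at the weakest.

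Steap3 (chromosome 1, 120190757 to 120272705) encodes the endosomal ferrireductase that readies iron for export to the cytosol. It was at 79.6, 96.6 and 80.3 CPM in control mice and at 34.2, 36.5 and 18.0 CPM in cachectic mice. The highest cachectic mouse was below the lowest control by a wide margin. Steap3 fell from 85.5 ± 9.65 to 29.6 ± 10.1 CPM (SD, n = 3), a 2.89-fold lower level and the largest change among the 10 genes. The log2 fold change was -1.53 (SE 0.26, 95% interval -2.12 to -0.94, edgeR adjusted p = 0.00868). It passed the threshold under each of the 17 other settings, which included leaving out each mouse in turn, with log2 fold changes between -1.71 and -1.27.

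The other uptake genes did not pass the test. Trf (chromosome 9, 103204001 to 103230444), which encodes transferrin, the iron carrier of plasma that adipose tissue also makes, was at 252, 269 and 267 CPM in control mice. In cachectic mice it was at 360, 213 and 497 CPM. The controls were close together, while the cachectic mice lay on both sides of them. The log2 fold change was 0.44 (SE 0.28, 95% interval -0.21 to 1.09, edgeR adjusted p = 0.308). Slc11a2 (chromosome 15, 100387898 to 100425072) encodes DMT1, the transporter that moves ferrous iron out of the endosome. It was at 40.2, 32.2 and 31.9 CPM in control and at 34.2, 44.9 and 30.6 CPM in cachectic mice, and the groups overlapped. Its log2 fold change of 0.07 had a 95% interval of -0.34 to 0.49, so changes of the size seen in Steap3 lay outside the interval. The tests of Trf and Slc11a2 do not show that their levels were equal in the 2 groups.

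Ferritin mRNA was the most abundant of the 10. Fth1 (chromosome 19, 9982703 to 9985092), the heavy chain that oxidizes iron on entry to the shell, was at 2260, 2090 and 2275 CPM in control mice and at 2329, 1933 and 2160 CPM in cachectic mice. The values of the groups were interleaved. The log2 fold change was -0.04 (SE 0.19, edgeR adjusted p = 0.892), and its 95% interval ran from -0.49 to 0.40. Ftl1 (chromosome 7, 45457944 to 45459884), the light chain that helps to form the iron core, was at 871, 1012 and 793 CPM in control mice and at 785, 1031 and 534 CPM in cachectic mice. Cachexia replicate 2 was the highest and cachexia replicate 3 the lowest of all 6 mice. Its log2 fold change was -0.19 (SE 0.26, 95% interval -0.78 to 0.41, edgeR adjusted p = 0.649). Near-identical copies of ferritin genes can share reads with them. Ftl1-ps1 held between 163 and 277 counts, the other listed copies held at most 4 in any library, and the copies together held at most 2.03% of the counts of Ftl1 and 0.00953% of those of Fth1.

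Levels of different genes can be compared only per gene length, for which the deposited FPKM values were used. The ratio of Fth1 to Ftl1 was 4.02, 3.19 and 4.44 in control mice and 4.59, 2.90 and 6.26 in cachectic mice. Cachectic mice held both the lowest and the highest ratio, and the log2 difference of 0.18 did not stand out from the spread (p = 0.6, two-sided exact permutation test). The ratio of Tfrc to Fth1, the receptor against the storage chain, was 0.00372, 0.00374 and 0.00392 in control mice. In cachectic mice it was 0.00271, 0.00179 and 0.00196. All cachectic mice were below all controls, with a log2 difference of -0.84 (p = 0.1, two-sided exact permutation test, the smallest p that 3 mice against 3 can give). Most of this difference lay in Tfrc, whose own log2 fold change was -0.84 beside -0.04 for Fth1. The genes that hold an IRE-type match thus had separate results, with Tfrc lower and Fth1, Ftl1 and Slc40a1 not past the threshold. Over all genes with a match, 168 were tested, 10 were higher (5.95%) and 15 were lower (8.93%), beside the 9.0% and 8.63% of all tested genes, and their median log2 fold change was -0.07.

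**Figure D2:**
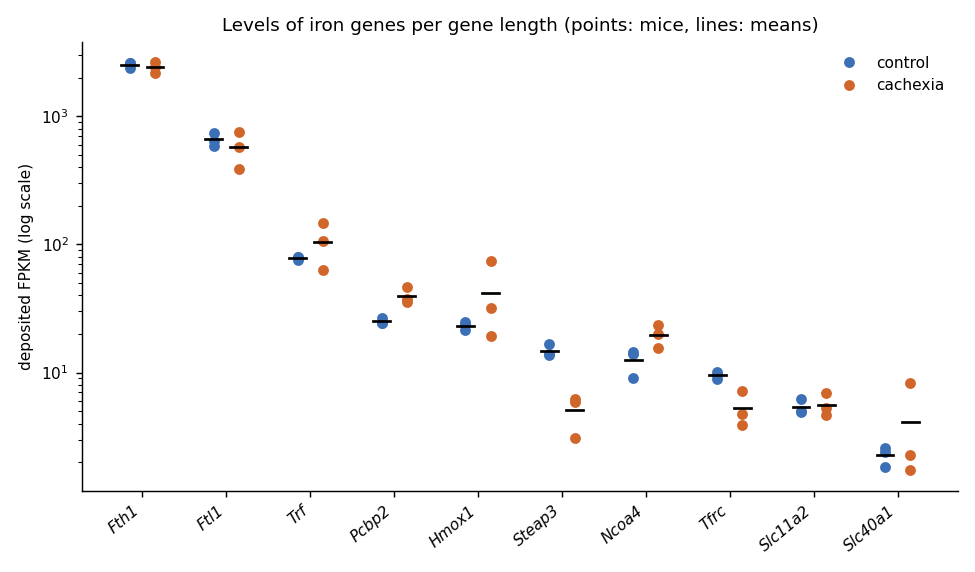
Levels of the 10 iron genes per gene length, as deposited FPKM on a log scale, ordered by their mean in control mice. Points are single mice (3 per group) and black lines are group means, and both ferritin chains stand above the other 8 genes in every mouse.

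In control mice the order was Fth1 (2518 ± 123 FPKM, SD, n = 3), Ftl1 (657 ± 80.6), Trf (78.1 ± 2.54), Pcbp2 (25.2 ± 1.19), Hmox1 (23.2 ± 1.78), Steap3 (14.8 ± 1.63), Ncoa4 (12.5 ± 3.01), Tfrc (9.55 ± 0.651), Slc11a2 (5.40 ± 0.748) and Slc40a1 (2.27 ± 0.389). The neighbours whose ranges overlapped were Pcbp2 with Hmox1, Steap3 with Ncoa4, and Ncoa4 with Tfrc. In cachectic mice Fth1 (2416 ± 230 FPKM) and Ftl1 (571 ± 181) again led, and Steap3 (5.06 ± 1.73 FPKM) stood at position 9. The ranges of Slc11a2, Tfrc, Steap3 and Slc40a1 overlapped there from each gene to the next. Fth1 ranked at position 12 and Ftl1 at position 41 of the 16003 tested genes by mean FPKM.

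Among the genes of iron delivery and ferritinophagy, Pcbp2 rose and Ncoa4 did not pass the test. Both were also picked out by the study itself from these libraries, so their direction is not independent evidence. The study's list of ferroptosis genes also held Tfrc and Steap3. By qPCR the study reported Pcbp2 and Ncoa4 as significantly higher in eWAT, inguinal fat and gastrocnemius muscle of cachectic mice. Pcbp2 (chromosome 15, 102470539 to 102500061) encodes an RNA-binding protein that also acts as an iron chaperone, taking iron from DMT1 and handing it on. It was at 140, 129 and 129 CPM in control mice and at 199, 249 and 188 CPM in cachectic mice. The lowest cachectic mouse was above the highest control. Pcbp2 rose 1.60-fold, with a log2 fold change of 0.68 (SE 0.15, 95% interval 0.33 to 1.02, edgeR adjusted p = 0.0223). The call was lost without control replicate 2 (edgeR adjusted p = 0.0896) or control replicate 3 (edgeR adjusted p = 0.105). Pcbp2 overlaps Map3k12 on the other strand, which held 176 to 454 counts in a library, and whether counting used strand was not given in the sources used here. With the counts of its overlapping genes summed into it, the log2 fold change was 0.58 (edgeR adjusted p = 0.0379).

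Ncoa4 (chromosome 14, 32159865 to 32179855), the receptor of ferritinophagy, was at 85.2, 134 and 136 CPM in control mice. In cachectic mice it was at 226, 192 and 149 CPM. The groups did not overlap, though cachexia replicate 3 was close to control replicates 2 and 3, and control replicate 1 was the lowest of all. Its test gave a log2 fold change of 0.67 (SE 0.23, 95% interval 0.15 to 1.20, edgeR adjusted p = 0.0799). Its size was that of Pcbp2, and its spread between control mice, a coefficient of variation of 24.3% against 4.54% for Pcbp2, was larger. It passed under library totals (edgeR adjusted p = 0.0401) and in DESeq2 (adjusted p = 0.0310), and without control replicate 1 its log2 fold change was 0.48.

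Heme release and export had high values in 1 cachectic mouse. Hmox1 (chromosome 8, 75093621 to 75100589), the inducible heme oxygenase, was at 41.3, 38.0 and 44.2 CPM in control mice. In cachectic mice it was at 131, 57.4 and 34.5 CPM. Cachexia replicate 1 was far above the other mice and cachexia replicate 3 was below every control. The log2 fold change was 0.85 (SE 0.42, 95% interval -0.12 to 1.83, edgeR adjusted p = 0.195), and without cachexia replicate 1 it was 0.16. Slc40a1 (chromosome 1, 45908068 to 45926523), which encodes ferroportin, was at 21.7, 16.7 and 23.5 CPM in control mice and at 75.8, 16.0 and 20.8 CPM in cachectic mice. Apart from cachexia replicate 1, cachexia replicate 3 lay inside the range of the controls and cachexia replicate 2 just below it. The log2 fold change of 0.86 (SE 0.54, 95% interval -0.38 to 2.11, edgeR adjusted p = 0.298) became -0.17 without cachexia replicate 1. The summed macrophage markers of cachexia replicate 1, 1505 CPM, lay inside the range of the other 5 mice. Its summed erythroid markers, 2856 CPM, were the highest of all, ahead of 2557 CPM in cachexia replicate 3. The part of macrophages and of erythroid cells in the Hmox1 and Slc40a1 levels of this mouse was not tested.

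**Figure D3:**
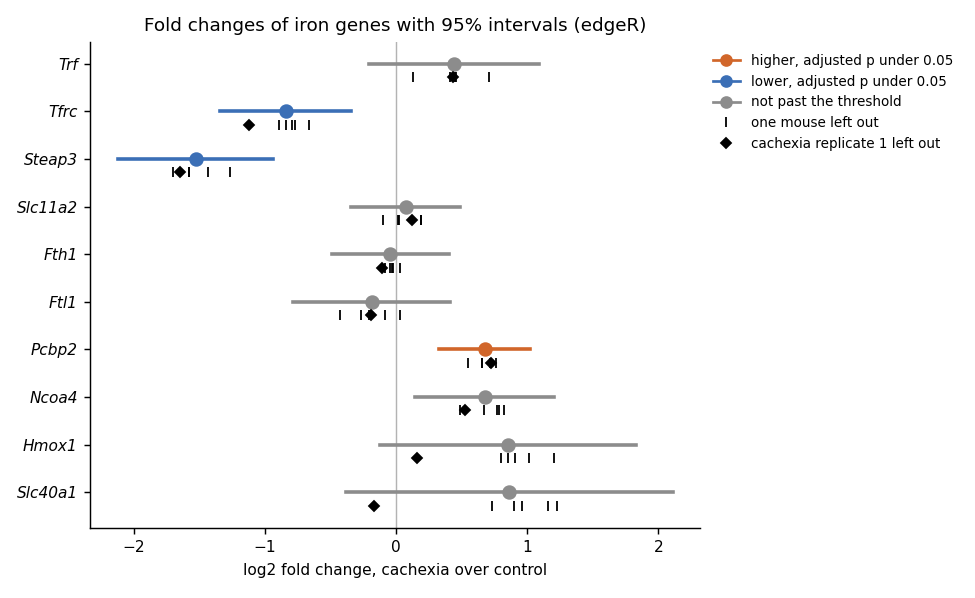
Log2 fold change of each iron gene, cachectic over control mice, with its 95% interval from edgeR (horizontal axis, log2 scale; 3 mice per group). Small marks below each line are the fold changes with 1 mouse left out, the diamond being cachexia replicate 1, and for Slc40a1 (-0.17) and Hmox1 (0.16) the diamond stands apart from the other marks.

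The spread between mice was mostly wider in the cachectic group. The coefficient of variation was larger among cachectic mice for 9 of the 10 genes, the exception being Ncoa4, and for 61.9% of all tested genes. For Trf it was 39.8% against 3.44% in control mice, for Slc40a1 88.6% against 17.0%, and for Fth1 9.29% against 4.67%. Over all tested genes the medians were 19.2% and 14.2%. Cachexia replicate 1 held the highest value of 4 genes (Fth1, Ncoa4, Hmox1 and Slc40a1), cachexia replicate 2 that of 3 (Slc11a2, Ftl1 and Pcbp2), and cachexia replicate 3 that of Trf. Cachexia replicates 2 and 3 each held the lowest value of 4 genes, so no cachectic mouse was high or low throughout.

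Other genes of iron metabolism were listed by role, 78 in all, of which 70 could be tested. Of these, 11 were higher (15.7%, against 9.0% of all tested genes) and 6 were lower (8.57%, against 8.63%), and their median log2 fold change was 0.02. These shares are a description of a list and were not tested, and the smaller lists below are to be read against the same background. Among 16 tested genes of iron transport 4 were higher and 2 were lower. Steap4, a metalloreductase of the plasma membrane and a relative of Steap3, was at 842, 994 and 994 CPM in control mice and at 334, 234 and 393 CPM in cachectic mice. Like Steap3 it fell in every cachectic mouse below every control, with a log2 fold change of -1.56 (SE 0.23, edgeR adjusted p = 0.00535). Heph, which encodes hephaestin, a ferroxidase that works with ferroportin, fell from 160 ± 34.4 to 75.7 ± 14.2 CPM (SD, n = 3; log2 fold change -1.08, edgeR adjusted p = 0.0137).

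The transporters of iron that is not bound to transferrin, Slc39a14 and Slc39a8, which also carry zinc and manganese, were higher, and both were among the genes that the study picked out from these libraries. The study also reported both as significantly higher by qPCR in the eWAT of cachectic mice. Slc39a14 was at 21.8, 22.6 and 18.1 CPM in control mice and at 23.6, 90.9 and 152 CPM in cachectic mice. Cachexia replicate 1 was thus barely above the controls, in contrast to the other cachectic mice, and the log2 fold change was 2.09 (SE 0.56, edgeR adjusted p = 0.0390). It was 1.46 without cachexia replicate 3 (edgeR adjusted p = 0.0975). Slc39a8 was at 12.1, 35.5 and 23.1 CPM in control and at 69.2, 51.3 and 150 CPM in cachectic mice, with a log2 fold change of 1.94 (SE 0.48, edgeR adjusted p = 0.0318). Slc25a37, the mitochondrial iron importer mitoferrin-1, which is abundant in erythroid cells, had a log2 fold change of 0.70 (edgeR adjusted p = 0.0433). Ltf, which encodes lactoferrin of neutrophil granules, held 3, 10 and 1 counts in control libraries and 100, 70 and 981 in cachectic libraries (log2 fold change 6.56, SE 1.37, edgeR adjusted p = 0.0180). Its log2 fold change was 4.27 without cachexia replicate 3 and 7.77 without control replicate 2, so the size of the change rested on single libraries. Cachexia replicate 3, with the most Ltf, also had the highest sum of neutrophil markers, 758 CPM against 290 and 265 CPM in cachexia replicates 1 and 2. The members of this sum differed. S100a8, S100a9 and Ngp (186, 340 and 106 CPM) were highest in cachexia replicate 3, as were Cxcr2, Mmp8, Retnlg, Camp and Mpo. Csf3r, Mmp9 and Elane (12.3, 34.8 and 3.28 CPM there), and Ly6g, were lower in it than in the other cachectic mice. The part of neutrophils in the Ltf level was not tested.

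Lcn2, whose protein binds siderophores that carry iron, was at 148, 8.20 and 9.80 CPM in control mice and at 18.3, 81.6 and 105 CPM in cachectic mice. The highest value of all belonged to control replicate 1, and each cachectic mouse was above the other two controls. Lcn2 did not pass the test with all mice (log2 fold change 0.30, SE 1.08, edgeR adjusted p = 0.871). Without control replicate 1 its log2 fold change was 2.92 (edgeR adjusted p = 0.0385). Apart from these libraries, the study reported higher Lcn2 mRNA by qPCR, and higher LCN2 protein, in the eWAT of mice bearing LLC tumors. Slc22a17, which encodes a receptor of lipocalin-2, was at 36.5, 23.0 and 23.0 CPM in control mice and at 22.2, 17.8 and 13.0 CPM in cachectic mice (log2 fold change -0.64, edgeR adjusted p = 0.124).

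Of 12 tested regulators of iron balance, 1 was higher and 3 were lower. Aco1, whose protein is iron regulatory protein 1 when it lacks its iron-sulfur cluster, was at 249, 355 and 338 CPM in control mice and at 212, 140 and 91.5 CPM in cachectic mice. It fell by 1.09 on the log2 scale (SE 0.30, edgeR adjusted p = 0.0438). Ireb2, which encodes iron regulatory protein 2, had a log2 fold change of -0.06 (edgeR adjusted p = 0.773) and Fbxl5, whose protein marks iron regulatory protein 2 for degradation, one of 0.47 (edgeR adjusted p = 0.0693). Hfe, the hemochromatosis gene, whose protein binds the transferrin receptor, fell from 114 ± 24.9 to 40.6 ± 9.42 CPM (SD, n = 3; log2 fold change -1.50, SE 0.23, edgeR adjusted p = 0.00643). Tmprss6, which encodes a protease that restrains hepcidin, was also lower (log2 fold change -2.04, edgeR adjusted p = 0.0343), at a level of 1.04 ± 0.286 CPM in control mice. Hamp, which encodes hepcidin, had too few counts to be tested. Epas1, a hypoxia-inducible factor that is abundant in endothelial cells, was higher (log2 fold change 0.71, edgeR adjusted p = 0.0483). Of the 8 endothelial markers 4 were higher and 4 were not called. The part of endothelial cells in the Epas1 level was not tested. The log2 fold changes of Bach1, a heme-sensing repressor of Hmox1, and Nfe2l2, an activator of Hmox1 and of both ferritin genes, were 0.37 and 0.05 (edgeR adjusted p = 0.283 and 0.867).

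**Figure D4:**
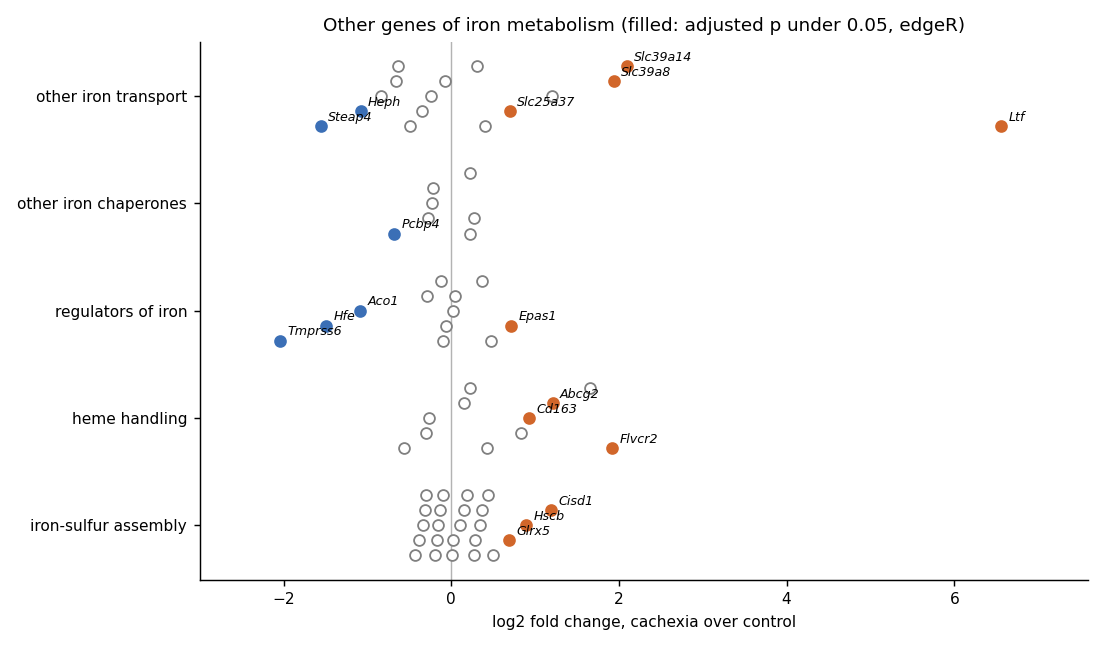
Log2 fold change, cachectic over control mice, of the 70 other tested genes of iron metabolism in 5 lists (horizontal axis, log2 scale; vertical offsets within a list only separate the points). Filled points passed an adjusted p of 0.05 in edgeR's test (11 higher in orange, 6 lower in blue, with their names) and open points did not.

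Of 7 tested iron chaperones, Pcbp4, a relative of Pcbp2, was lower (log2 fold change -0.68, SE 0.16, edgeR adjusted p = 0.0266) and none was higher. Of 11 tested genes of heme handling 3 were higher and none was lower. Flvcr2, which encodes a membrane transporter named after a feline leukemia virus receptor, rose from 2.03 ± 0.641 to 7.70 ± 1.24 CPM (SD, n = 3; log2 fold change 1.92, SE 0.33, edgeR adjusted p = 0.00917). Abcg2, an efflux pump that carries porphyrins, and Cd163, the macrophage receptor of hemoglobin bound to haptoglobin, had log2 fold changes of 1.21 (edgeR adjusted p = 0.0226) and 0.93 (edgeR adjusted p = 0.0293). Cd163 was at 63.8, 93.9 and 90.7 CPM in control mice and at 157, 199 and 119 CPM in cachectic mice, while the summed macrophage markers of the groups overlapped. That sum covers members of both directions. Mertk was higher (log2 fold change 0.85, edgeR adjusted p = 0.0320) and Mrc1 was lower (-0.90, edgeR adjusted p = 0.0210). These were the only calls among the 12 macrophage markers, a share near that of all tested genes in each direction. Its largest member was Lyz2, at 537.5 to 809.1 CPM. The part of macrophages in the Cd163 level was not tested. Of 24 tested genes of iron-sulfur cluster assembly 3 were higher and none was lower. Cisd1, which encodes mitoNEET, an iron-sulfur protein of the outer mitochondrial membrane, was at 56.4, 61.3 and 57.3 CPM in control and at 132, 137 and 131 CPM in cachectic mice. The mice of each group were close together, and the log2 fold change was 1.19 (SE 0.11, edgeR adjusted p = 0.00157). Glrx5 (0.69) and Hscb (0.89), whose products pass new clusters on in the mitochondrion, were also higher (edgeR adjusted p = 0.0110 and 0.0161).

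Of the 17 other iron genes called, Steap4, Hfe, Flvcr2 and Cisd1 kept an adjusted p under 0.05 in edgeR's test whichever mouse was left out. Without control replicate 3 the call was lost by 15 of the 20 iron genes named as called, Tfrc and Pcbp2 among them, and without control replicate 2 by 12. Without control replicate 1, the library that stood apart, it was lost by 9, namely Tfrc, Slc39a8 (edgeR adjusted p = 0.0630), Slc39a14 (0.0839), Slc25a37 (0.0907), Ltf (0.0544), Cd163 (0.0665), Epas1 (0.0995), Pcbp4 (0.0642) and Tmprss6 (0.0893). Epas1, Pcbp4 and Tmprss6 lost it whichever mouse was left out. Slc39a14, Slc25a37 and Cd163 kept it in 1 of the 6 runs, Slc39a8 and Aco1 in 2, and Ltf in 3, losing it without any of the controls. Heph, Abcg2, Glrx5 and Hscb lost it only without control replicate 2 or 3, of which Glrx5 and Hscb only without control replicate 3. Over these runs the edgeR adjusted p of the genes that lost a call reached at most 0.137. With all mice kept and no block, calls were also lost under other tools and filters. That of Slc39a14 was lost in limma-voom and in limma on log2 FPKM with either pseudocount, that of Ltf in limma-voom and in limma on FPKM with a pseudocount of 1, that of Slc25a37 in both limma fits on FPKM, that of Tmprss6 in limma on FPKM with a pseudocount of 1 and without the filter on low counts, that of Epas1 without this filter, and that of Pcbp4 with library totals. Ltf and Tmprss6 were not tested where at least 10 counts were required in every sample. DESeq2 gave no adjusted p for Ltf.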

How the data were processed

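RNA-seq libraries of eWAT from 3 cachectic and 3 control mice were grouped by their sample labels. After reads of low quality had been discarded, the authors aligned with Hisat2, assigned reads to genes with featureCounts (1.5.0-p3 in the submitters' processing notes) and deposited a raw count per gene and mouse. The authors also deposited FPKM, which corrects the count for gene length. The notes name build mm9, whereas 98.3% of the file's genes that are in GENCODE M21 (GRCm38) have the same coordinates there, so coordinates are those of the files, which follow GRCm38. Strand use in counting was not given in the sources used here. The authors' table of DEGs, with DESeq2 (1.16.1) fold changes and p-values, was not used.

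The test was edgeR 4.0.16 under R 4.3.3 (genes kept by filterByExpr, TMM factors, quasi-likelihood test, no covariates, Benjamini-Hochberg adjustment over 16003 genes, threshold 0.05). The biological coefficient of variation was 0.264. Standard errors are the log2 fold change divided by the square root of F, and 95% intervals come from the same fit. Ratios of FPKM were compared by two-sided exact permutation tests. The labels only number the samples within each group, and each sample was taken as a separate mouse. On that reading, p-values measure the spread between these mice alone. No pair of libraries within a group had near-identical counts.

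The 10 genes and the lists were chosen with earlier results of these data known. Named were all 10, the called genes of each other iron list with the smallest p (at most 6 a list), and, whatever their values, Lcn2, Slc22a17, Hamp, Aco1, Ireb2, Fbxl5, Bach1, Nfe2l2, Slc39a14 and Slc39a8.

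Single choices were varied in 17 other settings: RLE size factors, library totals, no filter, at least 10 counts in every sample, DESeq2 1.42.0, limma-voom and limma on log2 FPKM (limma 3.58.1, pseudocount 1 or 0.1), protein-coding genes alone, overlapping genes summed, a replicate block, and each of the 6 mice left out. Scripts were tested on simulated counts.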

Additional observations from a re-analysis of the deposited data

How the results depend on the processing

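Among the 10 genes, Steap3 kept its call under all 17 other settings. The number higher was 2 with library totals and with DESeq2, where Ncoa4 joined Pcbp2, and 0 with a replicate block, where the adjusted p of Pcbp2 was 0.0538 in edgeR's test. With the block, 913 of all genes and 7 of the other iron genes were higher. Of the other iron genes named, Abcg2 (edgeR adjusted p = 0.0535), Aco1 (0.0724), Slc25a37 (0.0823), Tmprss6 (0.0882), Slc39a14 (0.0890) and Epas1 (0.108) were not called with it. Deviations from the group means of mice with the same number had correlations between -0.0113 and 0.00849. Those of mice with different numbers lay between -0.0239 and 0.0226. The numbers thus gave no sign of pairing the mice, but with 3 mice in a group this check cannot exclude a pairing. With 1 mouse left out, 0 to 1 of the 10 genes were higher and 1 to 2 lower, 382 to 1197 of all genes were higher and 446 to 1142 lower, and 2 to 8 of the other iron genes were higher and 2 to 6 lower. Fewest genes passed without control replicate 3, and the cause was not tested beyond the smaller number of mice. Among the named genes past the threshold no direction changed. Among those that were not, the log2 fold change of Fth1 became 0.0017 with library totals, which moved the median of all genes from -0.003 to 0.046. Leaving out each mouse in turn gave log2 fold changes on both sides of 0 for 7 such genes, from -0.10 (without cachexia replicate 2) to 0.19 for Slc11a2, from -0.11 to 0.027 (without cachexia replicate 2) for Fth1, from -0.43 to 0.0295 (without cachexia replicate 3) for Ftl1, from -0.17 (without cachexia replicate 1) to 1.23 for Slc40a1, from -0.14 to 0.0086 (without cachexia replicate 3) for Ireb2, and from -0.10 (without cachexia replicate 3; -0.0062 without control replicate 2) to 0.18 for Nfe2l2. For Lcn2 they ran from -0.21 (without control replicate 2; -0.19 without control replicate 3 and -0.15 without cachexia replicate 3) to 2.92. The log2 difference of the Fth1 to Ftl1 ratio lay between -0.08 and 0.48, and that of the Tfrc to Fth1 ratio between -1.02 and -0.72. With 3 mice in each group the 95% intervals of Trf, Hmox1 and Slc40a1 include changes of over 2-fold, so differences of that size could not be settled.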

Other observations

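Hmox1 and Slc40a1 belong to a small group of genes that stood out in cachexia replicate 1, listed after its values were seen and not tested. For each tested gene, the CPM of a mouse was divided by the highest CPM of the other mice plus 0.5. Counting genes with a ratio of at least 2, cachexia replicate 1 had 9. There were 46 and 117 in cachexia replicates 2 and 3 and 337, 7 and 5 in control replicates 1 to 3. The 9 genes were Slc40a1 (ratio 3.16), Chst1 (2.68), Gm454 (2.42), Hmox1 (2.27), Id1 (2.25), Rps24-ps3 (2.15), Mfng (2.14), Fcna (2.06) and Cxcl14 (2.00). Fcna, which encodes ficolin A and is known from tissue macrophages, was at 114 CPM in cachexia replicate 1 and between 20.5 and 54.9 CPM in the other mice. Id1, a target of bone morphogenetic protein signaling, was at 178 CPM there and between 43.6 and 78.7 CPM elsewhere.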
